A study of Mus musculus with 6 samples.

Results

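The cytosolic ribosomal protein genes encode the protein parts of the ribosomes that translate nuclear messages. Members were taken by symbol, as protein-coding genes whose symbols begin with Rpl or Rps and a digit, together with *Rpsa*, *Rplp0*, *Rplp1* and *Rplp2*, without pseudogene symbols and without the S6 kinases. The rule found 86 of the 56748 genes in the count table, 52 named for the large subunit and 34 for the small subunit. Of these, 77 encode canonical subunit proteins and 8 are paralogs, second genes for a protein of the same type. The last member, *Rps19bp1*, carries the symbol of a protein that binds RPS19 and is not part of the ribosome.

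The study asked what loss of phosphoglycerate mutase, a glycolytic enzyme made by *Pgam1* and *Pgam2*, does to CD4 T cells that are turning into regulatory T cells (Tregs). Naive CD4 T cells of genotype WT (wild type) came from C57BL/6 mice aged 6 to 10 weeks. The labels name splenocytes as the source, and the study's methods name both spleen and lymph nodes. The cells were cultured for 3 days, and RNA was taken from the unsorted culture. All 6 cultures received anti-CD3, anti-CD28, IL-2, TGF-β, anti-IFNγ and anti-IL-4. An antisense oligonucleotide (ASO), a short synthetic strand that pairs with a chosen RNA, was in the medium from the start, of scrambled sequence in 3 cultures and directed at *Pgam* in the other 3. According to the study these are biological replicates.

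Polyadenylated RNA was sequenced, and the counts are those that Kallisto estimated for each gene. Libraries labelled scrambled ASO held 17588755, 18032805 and 16231127 counts in replicates 1, 2 and 3. Libraries labelled Pgam ASO held 16589933, 15860476 and 16803881. Values below are CPM, counts scaled by TMM to a common library size, listed in the order of replicates 1, 2 and 3. Fold changes are log2 values of Pgam ASO over scrambled ASO from edgeR's quasi-likelihood test, and a gene is called when its Benjamini-Hochberg adjusted p over all 14936 tested genes is under 0.05.

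Ribosomal protein mRNAs are among the most abundant messages of a growing cell, and the proteins are needed in equal amounts because each ribosome takes 1 of nearly every kind. Most of these mRNAs begin with a C followed by an unbroken run of pyrimidines, the terminal oligopyrimidine (TOP) motif, through which mTOR signalling and LARP1 set how strongly they are translated. A naive T cell that meets its antigen makes many new ribosomes before it divides. The genes also have large families of processed pseudogenes, copies of the mRNA inserted elsewhere in the genome, which complicates the assignment of short reads.

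The targeted genes were read first. *Pgam1* (ENSMUSG00000011752) was at 600, 478 and 707 CPM under scrambled ASO and at 658, 661 and 707 CPM under Pgam ASO. The groups overlapped, and the scrambled group spread more widely, with a log2 fold change of 0.18 (standard error, SE, 0.13, adjusted p = 0.331 in edgeR). *Pgam2* (ENSMUSG00000020475), the muscle form, had 93, 125 and 46 counts under scrambled ASO and 48, 42 and 44 under Pgam ASO. Only scrambled replicates 1 and 2 stood above the rest, and the log2 fold change was -0.84 (SE 0.31, edgeR adjusted p = 0.0854). Without scrambled replicate 3 it was -1.11 with an edgeR adjusted p of 0.0144. Because *Pgam1* RNA was not lower, the groups are called by their labels. The study reports that *Pgam* ASOs reduced PGAM1 protein in T cells cultured under Treg conditions. The counts hold RNA alone, so whether the protein was lower in these cultures was not tested.

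Ribosomal protein genes took up a similar part of every library. Their summed share of all counts was 6.86%, 6.67% and 7.39% under scrambled ASO and 7.01%, 6.98% and 6.86% under Pgam ASO. Scrambled replicate 3 was the highest and scrambled replicate 2 the lowest, so the Pgam ASO libraries lay inside the range of the scrambled ones. The means were 6.97% ± 0.372 (SD, n = 3) and 6.95% ± 0.0779 (SD, n = 3). The 95% Wilson interval ran from 6.663% to 6.686% in scrambled replicate 2 and from 7.378% to 7.404% in scrambled replicate 3, and such intervals cover counting error alone. Large subunit genes held 3.99% ± 0.234 and 3.99% ± 0.0475 of counts in the respective groups, and small subunit genes 2.99% ± 0.138 and 2.95% ± 0.0385 (SD, n = 3).

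The genes for mitochondrial ribosomal proteins, which serve the separate ribosomes inside mitochondria, gave a different picture. Their share was 0.308%, 0.282% and 0.327% under scrambled ASO and 0.369%, 0.353% and 0.336% under Pgam ASO, with every Pgam ASO library above every scrambled one. The mRNAs that those ribosomes translate, encoded in mitochondrial DNA, held 1.84%, 2.01% and 1.83% of counts under scrambled ASO and 1.1%, 1.26% and 1.14% under Pgam ASO. All 3 Pgam ASO libraries were below all 3 scrambled ones.

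**Figure D1:**
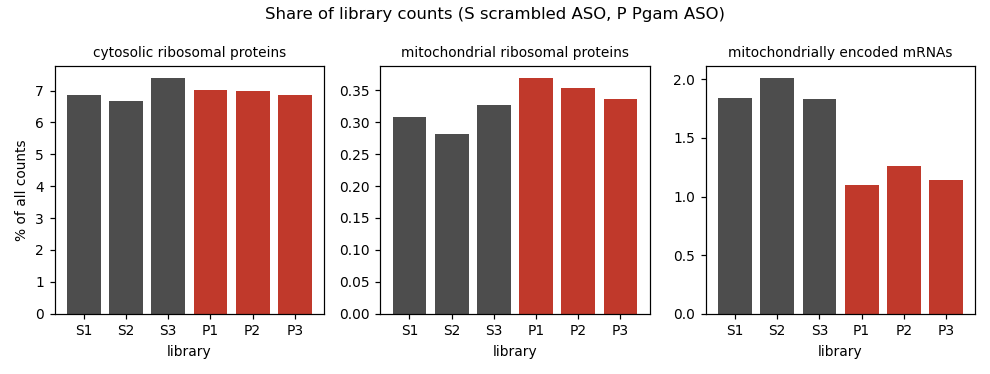
Share of all counts in each library (bars, % of counts) for cytosolic ribosomal protein genes, mitochondrial ribosomal protein genes and mRNAs encoded in mitochondrial DNA, with S for scrambled ASO and P for Pgam ASO replicates. The cytosolic share runs from 6.67% to 7.39% with both groups overlapping, whereas the mitochondrially encoded share is 1.83% or more in scrambled and 1.26% or less in Pgam ASO libraries.

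Few single members differed between the groups. Of the 86 members 84 had enough counts to be tested. *Rpl10l*, a testis gene that stands in for *Rpl10* in male germ cells, had 0 counts in all 6 libraries, which allows up to 3 counts in each, and *Rpl3l*, a gene of heart and skeletal muscle, had 1 to 4. One member, *Rpl22l1*, was called higher, against 8.03% of all tested genes, and 2 members, *Rps27rt* and *Rpl30*, were called lower, against 9.15%. In either direction 2565 of the tested genes, or 17.2%, were called. DESeq2 and limma-voom also called 3 members each, against 21.5% and 16.9% of all tested genes in either direction, and 12 members had an unadjusted p under 0.05 in edgeR, against 34.9% of all tested genes.

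The calls were sensitive to single libraries. Without scrambled replicate 3, where ribosomal protein levels were highest, 11 members were called higher against 11.0% of tested genes, and 1 was called lower, against 11.4%. Among them were *Rpl22l1*, *Rpl8*, *Rpl41*, *Rps2* and *Rps29*, of which *Rpl8* and *Rps29* are named because of this outcome. Without scrambled replicate 1 or Pgam ASO replicate 2 no member was called in edgeR in either direction, and the calls over all genes came to 620 and 391. Without scrambled replicate 2 or Pgam ASO replicate 1 there were 0 members higher and 2 lower, with 1256 and 871 calls over all genes. Without Pgam ASO replicate 3 there were 3 members higher, *Rpl22l1*, *Rpl7l1* and *Rps29*, against 10.2% of tested genes, and 1 lower, against 11.3%.

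The typical member sat close to zero change. The median log2 fold change over the 84 tested members was 0.06, against -0.01 over all tested genes, with 56 members positive and 28 negative. Over the canonical members it was 0.03, and -0.01 when libraries were scaled by size alone. The large subunit gave 0.09 over 50 tested genes and the small subunit 0.02 over 34, which became -0.01 under library size alone. Set against the scrambled mean, the member median of each library was -0.02, -0.10 and 0.11 on the log2 scale under scrambled ASO and 0.09, 0.06 and 0.01 under Pgam ASO. The lowest and highest scrambled libraries were thus farther apart than any scrambled library was from any Pgam ASO library.

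Most members were measured closely. Standard errors had a median of 0.09 on the log2 scale, against 0.15 over all tested genes. For 72 of the 84 members the 95% confidence interval of the fold change lay inside 1.5-fold in both directions, and for the other 12 it reached that bound. An absolute log2 fold change under 0.2 was found for 64 members. Groups did not overlap for 12 members, 2 of them higher under Pgam ASO (*Rpl22l1* and *Rpl39l*), against 19.6% of all tested genes, and 10 lower, against 19.8%. Among the lower ones were *Rps27rt*, *Rpl30*, *Rpl34* and *Rps24*, and apart from the first pair they are named because of this outcome.

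**Figure D2:**
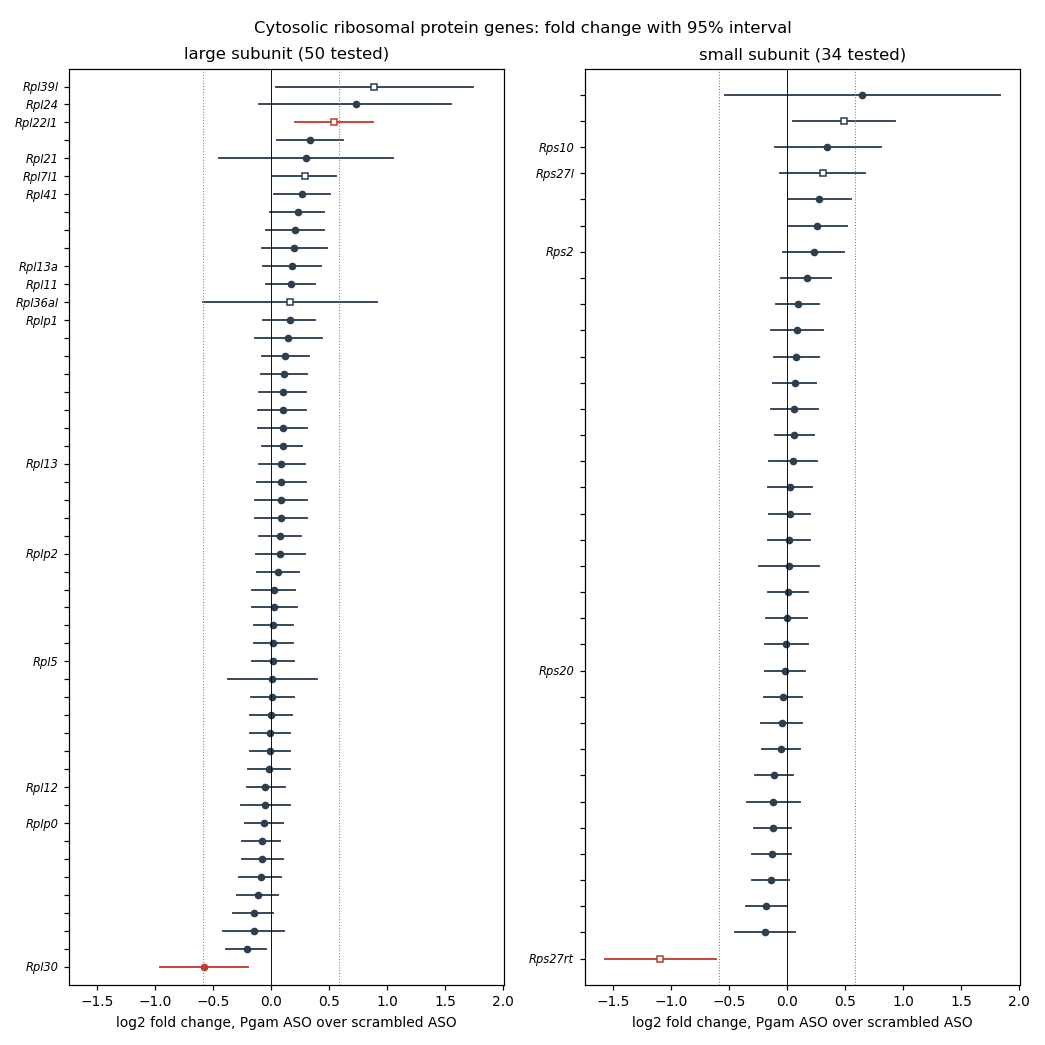
Log2 fold change, Pgam ASO over scrambled ASO, of each of the 84 tested members with its 95% confidence interval, by subunit, with gene names for those named by rule; open squares are paralogs and *Rps19bp1*, red marks members with an adjusted p under 0.05, and dotted lines mark 1.5-fold. Most points lie within 0.2 of zero, and 72 intervals stay between the dotted lines.

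Levels within the family were compared per transcript length, as CPM per kilobase averaged over the 6 libraries. The canonical members had a median of 1041 CPM per kilobase, and the highest were *Rpl41* at 3202, *Rplp1* at 3183, *Rpl13* at 2230, *Rps2* at 2112 and *Rplp0* at 2071. The lowest were *Rpl21* at 224, *Rps20* at 221, *Rpl13a* at 81.2, *Rps10* at 16.5 and *Rpl24* at 3.46 CPM per kilobase. Proteins needed in equal amounts thus had count levels that differed widely. For *Rps20* the annotated transcript used was 3706 bases long, so its level per length depends on that choice of transcript. *Rpl21*, *Rps10* and *Rpl24* held 42.9%, 2.81% and 18.5% of the counts of themselves and the genes that share their sequence, and the part of read division in their levels was not tested.

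*Rpl41*, which encodes the smallest ribosomal protein, was at 1215, 1154 and 1436 CPM under scrambled ASO and at 1671, 1549 and 1371 CPM under Pgam ASO. Pgam ASO replicate 3 was below scrambled replicate 3, so the groups overlapped, with an edgeR log2 fold change of 0.27 (adjusted p = 0.0995, and 0.026 without scrambled replicate 3). *Rps2*, at the entry of the mRNA channel, was at 1909, 1646 and 2272 CPM and at 2474, 2217 and 2128 CPM. Again scrambled replicate 3 stood within the Pgam ASO range, with an edgeR log2 fold change of 0.23 (adjusted p = 0.196, and 0.0311 without scrambled replicate 3).

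Members were also grouped by place in the ribosome, and none of these groups held a called gene in edgeR, DESeq2 or limma-voom. The stalk, which recruits translation factors and consists of *Rplp0*, *Rplp1*, *Rplp2* and *Rpl12*, had 0 of 4 called and 0 with an unadjusted p under 0.05, against 17.2% and 34.9% of all tested genes. Log2 fold changes there were -0.06 for *Rplp0*, 0.16 for *Rplp1*, 0.08 for *Rplp2* and -0.05 for *Rpl12*. *Rpl5* and *Rpl11* travel with the 5S ribosomal RNA and, when ribosome assembly fails, bind the p53 regulator MDM2. Against the same shares of all tested genes, neither was called or had an unadjusted p under 0.05, with log2 fold changes of 0.02 and 0.17.

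The 8 genes whose proteins line the exit of the peptide tunnel had a median of 0.02 with 0 called, and 1 had an unadjusted p under 0.05. The 5 proteins at the mRNA entry and decoding site had a median of -0.01, and the 5 at the mRNA exit and platform had -0.11 with the groups apart in 3 of them, all lower, against 19.8% of all tested genes. Both had 0 called and 0 with an unadjusted p under 0.05. Of 19 genes mutated in Diamond-Blackfan anaemia, a failure of red cell production from shortage of single ribosomal proteins, 0 were called, 3 had an unadjusted p under 0.05 against 34.9% of all tested genes, and the median was 0.09. With scrambled replicate 3 left out edgeR called 1 tunnel gene, 1 entry gene and 2 anaemia genes higher, and with Pgam ASO replicate 3 left out 1 anaemia gene.

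Both genes called lower share their sequence with other genes of the table. Kallisto assigns reads by stretches of 31 bases, and a read whose stretches occur in several transcripts is divided among them. The annotation used with Kallisto is not stated, and some gene IDs of the count table are newer than GENCODE M21, so the shared stretches and summed counts below may not match the index that divided the reads. In the GENCODE M21 transcripts the members shared a median of 45.4% of their stretches with other genes, from 0% to 99.0%. At least 50% of the stretches were shared by 36 members, and 76 members had a partner holding at least 10% of them. The counts of each member were therefore also summed with those of its partners and tested again.

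*Rpl30* (ENSMUSG00000058600, GRCm38 chr15:34440505-34443640, minus strand), a large subunit gene, was at 385, 309 and 475 CPM under scrambled ASO and at 306, 256 and 218 CPM under Pgam ASO. Each Pgam ASO library was below each scrambled library. The log2 fold change was -0.58 (SE 0.17, edgeR adjusted p = 0.0440), or 1.5-fold lower, and the gene shared 78.2% of its stretches. The call was lost without scrambled replicate 1 (edgeR adjusted p = 0.104) or 3 (0.0754), or without Pgam ASO replicate 2 (0.142) or 3 (0.0833).

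Counts of retrocopies of *Rpl30* were higher in every Pgam ASO library than in any scrambled one. *Gm12191* had 489, 1066 and 275 counts under scrambled ASO and 1369, 1758 and 2102 under Pgam ASO. *Rpl30-ps10* had 163, 497 and 69 counts under scrambled ASO and 499, 756 and 708 under Pgam ASO. In both, scrambled replicate 3 was the lowest library, the same library that was highest for *Rpl30* itself, and neither was called (edgeR adjusted p = 0.0571 and 0.138, log2 fold changes 1.65 and 1.58). Summed with all genes that share its stretches, *Rpl30* came to 7562, 7450 and 8075 counts and to 6970, 6716 and 6733 counts. The log2 fold change of that sum was -0.07 (SE 0.10, edgeR adjusted p = 0.627). How reads were divided among these genes in each library was not tested further.

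The coding sequences of these genes were compared. Over the 348-base coding sequence of *Rpl30*, *Gm12191* (chr11:49678710-49679057, minus strand) differed at 1 position, G96A. *Rpl30-ps10* (chrX:71803688-71804034, plus strand) differed at 3 of 347 positions compared, G10T, C20T and G96A, with the base of *Rpl30* first and positions counted from the A of the start codon. Shown are bases 1 to 30 and 82 to 111 of the coding sequence from the GENCODE M21 transcripts, 5′ to 3′, with the bases that differ from the other gene in capitals.
Rpl30, bases 1 to 30: atggtggccGcaaagaagaCgaaaaagtct
Rpl30-ps10, bases 1 to 30: atggtggccTcaaagaagaTgaaaaagtct
Rpl30, bases 82 to 111: gtgctgggctacaaGcagactctgaagatg
Gm12191, bases 82 to 111: gtgctgggctacaaAcagactctgaagatg
Within these windows a read can be told apart only if it spans a base in capitals.

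*Rps27rt* (ENSMUSG00000050621, chr9:114982366-114982739, minus strand) is a retrogene of *Rps27* and counted here as a small subunit paralog. It was at 144, 102 and 155 CPM under scrambled ASO and at 76.0, 66.2 and 46.4 CPM under Pgam ASO. All Pgam ASO libraries were below all scrambled libraries, with a log2 fold change of -1.09 (SE 0.21, adjusted p = 0.0159 in edgeR), or 2.12-fold lower. Without scrambled replicate 1 the edgeR adjusted p was 0.0552, and without Pgam ASO replicate 2 it was 0.0637. Its stretches were shared to 92.7%, with 91.6% found in *Rps27*, and the 255-base coding sequences of both genes were identical.

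*Rps27* itself was at 268, 335 and 240 CPM under scrambled ASO and at 280, 289 and 286 CPM under Pgam ASO. The groups overlapped with an edgeR log2 fold change of 0.02 (adjusted p = 0.915), and scrambled replicate 3, the lowest for *Rps27*, was the highest for *Rps27rt*. Summed with its partners, *Rps27rt* had 7317, 8120 and 6381 counts under scrambled ASO and 5739, 5545 and 5636 under Pgam ASO. That sum was lower in each Pgam ASO library, with a log2 fold change of -0.25 (SE 0.08) that did not pass the test (edgeR adjusted p = 0.0537).

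Members that were not called also shared their counts with pseudogenes. *Rpl17*, at the tunnel exit, was at 252, 310 and 373 CPM under scrambled ASO and at 371, 390 and 419 CPM under Pgam ASO, with scrambled replicate 3 just above Pgam ASO replicate 1 and an edgeR log2 fold change of 0.34 (adjusted p = 0.0952, and 0.0141 without scrambled replicate 3). It held 39.0% of its summed counts, and the sum had an edgeR log2 fold change of -0.17 (adjusted p = 0.150), the opposite sign. Its pseudogene *Rpl17-ps10* had 331, 276 and 236 CPM under scrambled ASO and 151, 178 and 133 CPM under Pgam ASO. All 3 Pgam ASO libraries were lower there, and the pseudogene fell by 0.87 on the log2 scale (edgeR adjusted p = 0.00519). *Rps10* counts were outnumbered by those of *Rps10-ps2*, at 275, 259 and 274 CPM and 266, 257 and 258 CPM in the respective groups, and a log2 fold change of 0.35 for *Rps10* became -0.02 for its sum.

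*Rps27a*, which encodes ubiquitin joined to a small subunit protein, varied within each label. It was at 538, 191 and 281 CPM under scrambled ASO and at 566, 722 and 300 CPM under Pgam ASO. Scrambled replicate 1 and Pgam ASO replicates 1 and 2 were high, so the groups overlapped, with a log2 fold change of 0.65 and a standard error of 0.48 (edgeR adjusted p = 0.388). Summing with its partners left 0.57.

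After summing, 1 member was called higher, *Rpl22l1*, and 0 lower in edgeR, against 17.6% of the genes in that fit called in either direction. The median log2 fold change over the 84 members was then 0.04, with a range from -0.25 to 0.89, where the counts as given ranged from -1.09 to 0.89. The SD of log2 fold changes over members was 0.19 in place of 0.24. By construction, members that share stretches with each other, such as *Rps27* and *Rps27rt*, had nearly the same sum, so the smaller SD is not a separate result. For 6 members under 50% of the summed counts were their own.

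**Figure D3:**
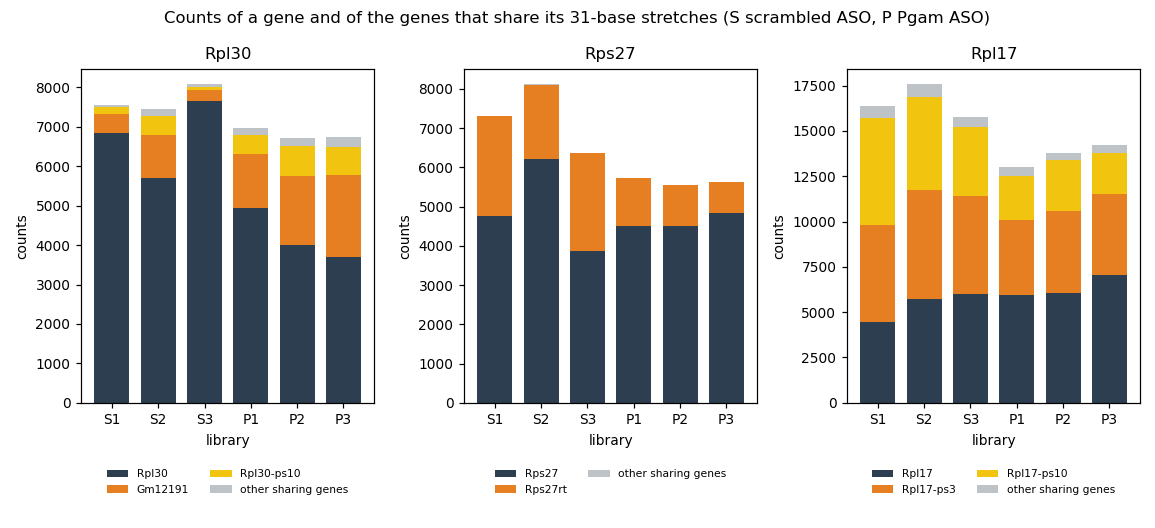
Counts of *Rpl30*, *Rps27* and *Rpl17* in each library, stacked with the counts of the genes that share their 31-base stretches (S scrambled ASO, P Pgam ASO replicates). *Rpl30* itself has 5715 or more counts under scrambled ASO and 4934 or fewer under Pgam ASO, where the retrocopies are larger, and the *Rps27* stack is 6371 or more against 5738 or fewer.

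Paralogs were compared with the parent genes they resemble. *Rpl22l1* (ENSMUSG00000039221, chr3:28805436-28807424, plus strand) encodes a large subunit protein close to RPL22, which developing αβ T cells need. It was at 41.4, 33.3 and 53.3 CPM under scrambled ASO and at 66.6, 59.5 and 60.1 CPM under Pgam ASO. Every Pgam ASO library exceeded every scrambled one, and *Rpl22l1* rose by a log2 fold change of 0.54 (SE 0.15, 95% confidence interval 0.21 to 0.88, edgeR adjusted p = 0.0365), or 1.46-fold. The call was lost without scrambled replicate 1 (edgeR adjusted p = 0.115) or 2 (0.0676), or Pgam ASO replicate 1 (0.113) or 2 (0.115), and summing with partners left it at 0.54 (0.0346). It shared 67.5% of its stretches, most of them with the pseudogene *Gm15421*, yet 97.8% of the summed counts were its own.

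The parent *Rpl22* was at 396, 417 and 442 CPM under scrambled ASO and at 374, 412 and 389 CPM under Pgam ASO. These groups overlapped, with an edgeR log2 fold change of -0.09 (adjusted p = 0.441). Of the counts of both genes, *Rpl22l1* held 9.46%, 7.39% and 10.8% under scrambled ASO and 15.1%, 12.6% and 13.4% under Pgam ASO. The nearest values, in scrambled replicate 3 and Pgam ASO replicate 2, had 95% Wilson intervals of 10.1% to 11.5% and 11.9% to 13.4%. The log2 ratio of paralog to parent differed by 0.66 between the groups (exact permutation test, two-sided p = 0.1, adjusted 0.14), and 0.1 is the smallest p that 3 libraries against 3 allow. This ratio was tested for 7 pairs with at least 10 counts of both genes in every library. *Rpl7l1*, *Rpl39l*, *Rps4l* and *Rps27rt* had the same p and adjusted p, so the test does not rank these pairs.

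*Rpl7l1*, a relative of *Rpl7*, held 7.23%, 6.07% and 7.02% of its pair under scrambled ASO and 9.53%, 8.56% and 7.69% under Pgam ASO, with the groups apart and a difference in log2 ratio of 0.37 (exact permutation p = 0.1). Its own log2 fold change of 0.29 was not called (edgeR adjusted p = 0.121, and 0.0444 without Pgam ASO replicate 3). *Rpl39l*, best known from male germ cells, had 10, 10 and 14 counts under scrambled ASO and 19, 18 and 22 under Pgam ASO. All 3 Pgam ASO libraries were above the scrambled ones, but the counts were few, and its log2 fold change of 0.89 was not called (edgeR adjusted p = 0.128).

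*Rps27l*, a p53 target beside *Rps27*, held 28.3%, 18.9% and 34.5% of its pair under scrambled ASO and 32.4%, 32.3% and 28% under Pgam ASO, so the groups overlapped (exact permutation p = 0.7). Its log2 fold change was 0.31 (edgeR adjusted p = 0.213, and 0.0423 without scrambled replicate 3). Of the counts summed with genes sharing its stretches, the parent *Rps27* held 65.1%, 76.6% and 60.7% under scrambled ASO. Under Pgam ASO the parent held 78.7%, 81.3% and 86%. The part of this read division in the *Rps27l* share was not tested. *Rpl36al*, an autosomal copy of the X-linked *Rpl36a*, had between 20 and 35 counts a library and an edgeR log2 fold change of 0.16 (adjusted p = 0.763). *Rps4l*, a relative of *Rps4x* that the annotation classes as a transcribed pseudogene and that is not a member, had 162, 103 and 143 counts under scrambled ASO and 222, 172 and 169 under Pgam ASO. Its groups were apart, with a difference in log2 ratio of 0.62 (exact permutation p = 0.1). For *Rps27rt* against *Rps27* the difference was -1.13 (exact permutation p = 0.1).

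**Figure D4:**
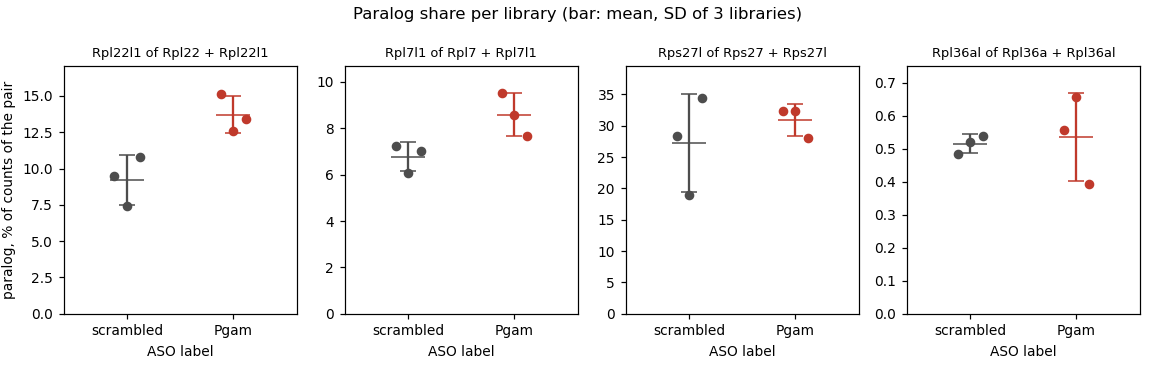
Share of a paralog in the counts of itself and its parent gene (%), per library, with the mean and SD of 3 libraries per ASO label. *Rpl22l1* holds at most 10.8% under scrambled ASO and at least 12.6% under Pgam ASO, and *Rpl7l1* is also separated, while *Rps27l* and *Rpl36al* overlap.

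Start sites were compared for the letters of the TOP motif. RefSeq promoter windows on GRCm38.p6, 250 bases before to 50 after the annotated start, had an entry for 66 members, 57 of them canonical, and for 27025 genes in all. A C at the annotated start followed by at least 4 more pyrimidines was present in 12 of the 57 canonical members (21.1%) and in 2.49% of all genes. Such a run began within 10 bases of the start in 29 of them (50.9%), against 30.6% of all genes. In the windows printed here, 10 bases before and 20 after the start and including it, 5′ to 3′, capitals mark the unbroken pyrimidine stretch.
Rplp2 (chr7:141447641-141447670, plus): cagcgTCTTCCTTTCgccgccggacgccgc
Rps10 (chr17:27635225-27635254, minus): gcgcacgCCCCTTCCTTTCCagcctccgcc
Rps27 (chr3:90213629-90213658, minus): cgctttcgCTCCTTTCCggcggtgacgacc
Rps27rt (chr9:114982720-114982749, minus): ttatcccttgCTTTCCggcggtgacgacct
Rpl22l1 (chr3:28805498-28805527, plus): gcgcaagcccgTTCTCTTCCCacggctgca
Rpl41 (chr10:128549149-128549178, minus): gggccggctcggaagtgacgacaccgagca
*Rps27rt* has pyrimidines at its own annotated start, as *Rps27* does, *Rpl22l1* has a stretch just after the annotated start, and *Rpl41* has none within 10 bases. For *Rpl41* the start used was base 128549168, whereas GENCODE M21 places the 5′ end of the gene at base 128549305. Whether annotated starts are the starts in use was not tested, so these shares are not counts of TOP mRNAs. The median log2 fold change was 0.06 over the 29 canonical members with a run near the start and 0.01 over the 28 without.

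Other promoter letters were counted on both strands. CCGGAAG, the letters that ETS factors such as GABP bind, stood in 22 of the 57 canonical members (38.6%) and in 9.18% of all genes. Among mitochondrial ribosomal protein genes it stood in 36.2% and among nucleolar assembly factors in 40%. The E-box CACGTG, which MYC and MAX bind, stood in 8.77% of canonical members, 7.21% of all genes and 20% of assembly factors. Read on the other strand CCGGAAG is CTTCCGG, which opens with a C-led pyrimidine run, so its count and the count of runs are not independent. TATAA stood in 26.3% of canonical members and 25.5% of all genes. A match is a description of the letters, and binding was not analysed here.

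Ribosomal protein sequences also lie in genes outside the symbol rule. *Fau*, a fusion of a ubiquitin-like protein with the small subunit protein eS30, was at 834, 843 and 975 CPM under scrambled ASO and at 714, 721 and 808 CPM under Pgam ASO. All 3 Pgam ASO libraries were lower, with a log2 fold change of -0.24 that was not called (edgeR adjusted p = 0.0927). *Rack1*, a signalling scaffold bound to the small subunit, had a log2 fold change of -0.05 with the groups overlapping (edgeR adjusted p = 0.677). *Fau* and *Rack1* show long pyrimidine stretches at the start.
Fau (chr19:6057937-6057966, plus): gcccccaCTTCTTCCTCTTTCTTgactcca
Rack1 (chr11:48800350-48800379, plus): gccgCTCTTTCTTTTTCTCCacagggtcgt

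Other TOP mRNAs, mostly translation factors, had a median as near to zero as the ribosomal proteins. Of 21 genes, 3 were higher and 1 lower, against 8.03% and 9.15% of all tested genes, with a median of 0.03, or 0.00 by library size alone. *Vim*, an intermediate filament gene, was at 1272, 1236 and 1380 CPM under scrambled ASO and at 1872, 2170 and 2394 CPM under Pgam ASO. It rose in every Pgam ASO library, with an edgeR log2 fold change of 0.73 (adjusted p = 0.00264). *Tpt1* was at 1931, 2049 and 2012 CPM and at 1549, 1651 and 1662 CPM, and it fell by 0.30 on the log2 scale (edgeR adjusted p = 0.0253). The *Tpt1* call was lost without scrambled replicate 1 (0.0828) or Pgam ASO replicate 1 (0.106) or 2 (0.11). List calls were 7 higher without Pgam ASO replicate 3, 6 without scrambled replicate 3, and 1 higher without any one of the other libraries, with 0 lower where scrambled replicate 1 or Pgam ASO replicate 1 or 2 was left out.

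Regulators of TOP translation, such as mTOR subunits and LARP1, had 2 of 15 genes higher and 0 lower, against 8.03% and 9.15% of all tested genes. An unadjusted p under 0.05 was found for 4 of them, against 34.9%, and the median was 0.15. *Eif4ebp1*, whose protein holds back cap-dependent translation until mTOR phosphorylates it, was at 41.0, 42.1 and 52.0 CPM under scrambled ASO and at 64.3, 65.4 and 64.9 CPM under Pgam ASO. It rose in all 3 Pgam ASO libraries, with an edgeR log2 fold change of 0.53 (adjusted p = 0.0126), and lost the call without scrambled replicate 1 (0.0655) or Pgam ASO replicate 2 (0.0734). Without either of these libraries the list had 0 calls in edgeR, and it had 1 without Pgam ASO replicate 1.

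Genes that build ribosomes were listed apart from those that encode their proteins, and the difference between the lists was not tested. Of 61 nucleolar assembly factors, which process ribosomal RNA and fold it with the proteins, 25 were higher and 0 lower in edgeR, against 8.03% and 9.15% of all tested genes. DESeq2 called 39 higher and 1 lower and limma-voom 21 higher and 0 lower, against 21.5% and 16.9% of all tested genes in either direction. With library size alone, or at least 10 counts in every library, edgeR called 24 higher and 1 lower. The median was 0.41 against 0.03 for canonical ribosomal proteins. *Rrp12*, an export factor of both subunits, was at 50.1, 43.3 and 55.8 CPM under scrambled ASO and at 110, 90.4 and 66.9 CPM under Pgam ASO. It rose in every Pgam ASO library, with an edgeR log2 fold change of 0.84 (adjusted p = 0.0152), a call lost without scrambled replicate 1 (0.0582) or 2 (0.0637) or Pgam ASO replicate 2 (0.0716). The list's higher calls were 3, 8 and 34 without scrambled replicates 1, 2 and 3, and 4, 0 and 47 without Pgam ASO replicates 1, 2 and 3, while its median stayed between 0.32 and 0.53. Calls over all genes ranged from 391 to 3484 with the same libraries left out.

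A further list held chaperones of ribosomal proteins, general import receptors such as *Kpnb1* and *Ipo7*, and *Znhit6*. Of its 11 tested genes, 4 were higher and 0 lower, against 8.03% and 9.15% of all tested genes. An unadjusted p under 0.05 was found for 7, against 34.9%, and the median was 0.34. *Grwd1*, the chaperone of RPL3, was at 37.4, 28.2 and 35.9 CPM under scrambled ASO and at 72.4, 48.1 and 46.4 CPM under Pgam ASO. It was higher in all 3 Pgam ASO libraries, with an edgeR log2 fold change of 0.72 (adjusted p = 0.0289), a call lost without scrambled replicate 1 (0.0672) or 2 (0.0960) or Pgam ASO replicate 1 (0.0666) or 2 (0.0707). The list had 0 calls without Pgam ASO replicate 1 or 2, 1 and 2 calls without scrambled replicates 1 and 2, and 7 without Pgam ASO replicate 3. With single libraries left out, the list's median ran from 0.20 without Pgam ASO replicate 1 to 0.42 without Pgam ASO replicate 3.

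Among mitochondrial ribosomal protein genes 19 of 77 were higher and 0 lower, against 8.03% and 9.15% of all tested genes. An unadjusted p under 0.05 was found for 36, against 34.9%, and the median was 0.26 with 74 positive values. *Mrps28*, of the small mitochondrial subunit, was at 15.9, 11.9 and 16.2 CPM under scrambled ASO and at 26.1, 22.6 and 19.2 CPM under Pgam ASO. It rose in all 3 Pgam ASO libraries, with an edgeR log2 fold change of 0.63 (adjusted p = 0.0289), but without scrambled replicate 1 (0.0762) or 2 (0.0701) or Pgam ASO replicate 1 (0.102) or 2 (0.113) it was not called. The higher calls of the list were 0 and 2 without scrambled replicates 1 and 2, 29 without scrambled replicate 3, 0 without Pgam ASO replicate 1 or 2, and 27 without Pgam ASO replicate 3. Calls over all genes ranged from 391 to 3484 across these fits, and the list's median stayed between 0.18 and 0.35. The mRNAs encoded in mitochondrial DNA had 9 of 12 lower and 0 higher, against 9.15% and 8.03% of all tested genes. Of the 12, 10 had an unadjusted p under 0.05, and the median was -0.67, with *mt-Cytb* falling from 2569, 2722 and 2618 CPM to 1148, 1238 and 968 CPM (log2 fold change -1.24, edgeR adjusted p = 0.000252).

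Genes of the MYC network, which drives ribosome production in activated T cells, had 1 of 7 higher and 3 lower, against 8.03% and 9.15% of all tested genes. *Myc* was at 310, 251 and 306 CPM under scrambled ASO and at 283, 270 and 239 CPM under Pgam ASO, with the groups overlapping and no call (edgeR adjusted p = 0.406), and it is named because it gives the list its name. *Mxd4*, a partner of MAX that represses MYC targets, was at 103, 161 and 89.6 CPM and at 26.8, 32.4 and 51.9 CPM. It fell in all 3 Pgam ASO libraries, by 1.67 on the log2 scale (edgeR adjusted p = 0.0213). *Mycl*, at 0.619, 0.810 and 0.805 CPM and at 1.61, 1.99 and 2.01 CPM, rose with an edgeR log2 fold change of 1.32 (adjusted p = 0.0273). Without scrambled replicate 1 or 2 or Pgam ASO replicate 1 or 2, *Mxd4* had an edgeR adjusted p of 0.0552, 0.0562, 0.0571 and 0.087, and *Mycl* of 0.103, 0.0619, 0.0634 and 0.113. The list then had 0 higher and 1, 2, 1 and 1 lower.

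**Figure D5:**
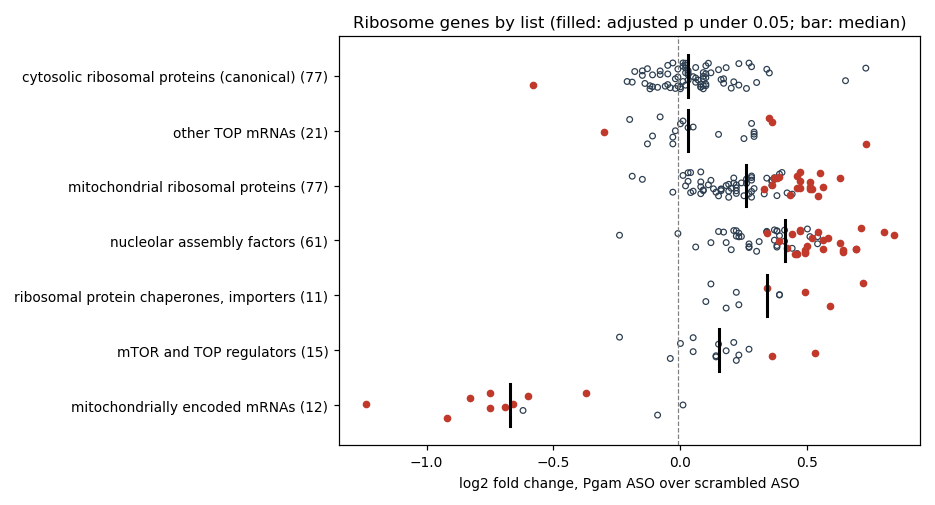
Log2 fold change, Pgam ASO over scrambled ASO, of each tested gene in 7 lists, with filled red points for an adjusted p under 0.05 and a bar at each median. Canonical ribosomal proteins and other TOP mRNAs centre on 0.03, nucleolar assembly factors on 0.41, mitochondrial ribosomal proteins on 0.26 and mitochondrially encoded mRNAs on -0.67.

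The cultures were checked for the markers of their labelled cells. The 7 T cell markers summed to 2699, 2863 and 2537 CPM under scrambled ASO and to 2167, 2241 and 2378 CPM under Pgam ASO, led by *Cd4*, with 0 of 7 higher and 2 lower, against 8.03% and 9.15% of all tested genes. *Cd28*, the costimulatory receptor, was at 434, 470 and 397 CPM and at 271, 279 and 272 CPM and fell by 0.66 on the log2 scale (edgeR adjusted p = 0.00183). Groups did not overlap for 6 of the 7 T cell markers, all of them lower, against 19.8% of all tested genes. An unadjusted p under 0.05 in edgeR was found for 6, against 34.9%. In bulk RNA fewer cells of a type and less RNA per cell cannot be told apart. T cell marker calls were 5 and 4 without scrambled and Pgam ASO replicate 3, and 1 without any one of the other libraries.

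The 5 Treg markers summed to 3029, 2886 and 3331 CPM and to 3722, 3750 and 3378 CPM, a sum led by *Il2ra*, with 1 higher and 2 lower, against 8.03% and 9.15% of all tested genes. *Foxp3*, the transcription factor that defines Tregs, was at 282, 371 and 222 CPM under scrambled ASO and at 89.7, 109 and 131 CPM under Pgam ASO, and it fell in all 3 Pgam ASO libraries by 1.41 on the log2 scale (edgeR adjusted p = 0.00567). *Il2ra*, at 1946, 1627 and 2216 CPM and at 2908, 2900 and 2495 CPM, rose by an edgeR log2 fold change of 0.52 (adjusted p = 0.0185), a call lost without scrambled replicate 1 (0.0725) or Pgam ASO replicate 1 (0.0639) or 2 (0.0967). The lower calls were then 1 in each case, and 1 without scrambled replicate 2.

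Markers of other cell types were low, apart from *Ighm* and *Eomes*. The 5 B cell markers summed to 328, 457 and 221 CPM under scrambled ASO and to 82.8, 118 and 149 CPM under Pgam ASO, of which *Ighm* made 320, 447 and 216 CPM and 75.6, 111 and 142 CPM, with 1 of 5 lower, against 9.15% of all tested genes (1 higher and 2 lower without scrambled or Pgam ASO replicate 3). *Ighm* fell by 1.58 on the log2 scale (edgeR adjusted p = 0.0282) and was not called without scrambled replicate 1 (0.0792) or 2 (0.0954) or Pgam ASO replicate 1 (0.0639) or 2 (0.102), while *Ms4a1* stayed at or under 1.29 CPM in every library. *Cd8a* was at 2.48, 3.08 and 2.23 CPM and at 7.02, 3.66 and 6.27 CPM and rose (log2 fold change 1.12, edgeR adjusted p = 0.0286), a call lost without scrambled replicate 1 (0.0989) or Pgam ASO replicate 1 (0.1), and *Cd8b1* was not called.

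Of the NK markers *Ncr1* was at or under 0.108 CPM, *Klrb1c* and *Klra8* were at 0 counts, and *Eomes*, which T cells also express, was at 52.5, 32.1 and 55.0 CPM and at 28.2, 26.9 and 24.1 CPM. *Eomes* fell by 0.82 on the log2 scale (edgeR adjusted p = 0.0214), and the call was lost without scrambled replicate 1 (0.0766) or Pgam ASO replicate 1 (0.0530) or 2 (0.0893). The 5 markers of mast cells and basophils summed to 5.03 to 7.37 CPM, most of it *Kit* under scrambled ASO, which fell by 1.68 on the log2 scale (edgeR adjusted p = 0.0142, but 0.0506 without scrambled replicate 1 and 0.0851 without Pgam ASO replicate 2). *Cpa3*, named because of its outcome, was at 0.957, 1.51 and 0.744 CPM under scrambled ASO and at 2.55, 2.25 and 2.13 CPM under Pgam ASO, with an edgeR log2 fold change of 1.09 that was not called (adjusted p = 0.0526). *Mcpt8* and *Fcer1a*, with too few counts to be tested, were also higher in every Pgam ASO library, at or under 0.994 and 0.513 CPM. DESeq2 and limma-voom each called 1 gene of this list higher and 1 lower. Myeloid markers, led by *Lyz2*, summed to 1.80 to 3.51 CPM and erythroid markers, led by *Alas2*, to 1.30 to 2.76 CPM, with 0 called in edgeR, DESeq2 or limma-voom and 0 at an unadjusted p under 0.05. The part of any other cell type in the ribosomal protein values was not tested.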

How the data were processed

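The authors deposited estimated counts per Ensembl gene, made with Kallisto and, per the processing notes, GRCm38, as whole numbers without normalization. All 6 libraries were compared in R 4.3.3 with edgeR 4.0.16 (filterByExpr, TMM, robust quasi-likelihood test, two-sided, Benjamini-Hochberg over 14936 genes). Symbols, coordinates, transcript lengths and 31-base stretches came from GENCODE M21. Alternatives were DESeq2 1.42.0, limma-voom (limma 3.58.1), RLE size factors, library size alone, TMM without ribosomal and mitochondrial genes, no filter, at least 10 counts in every library, a replicate block, each library left out, members summed with pseudogenes of the same name or with genes sharing stretches, and an adjusted p under 0.01. The procedure was tested on simulated data. Members and lists were chosen with earlier results of these data known. Genes named by rule were *Pgam1*, *Pgam2*, called members, the 5 highest and 5 lowest canonical members per length, paralogs, the stalk, *Rpl5*, *Rpl11*, *Fau*, *Rack1* and, from each other list, the called gene with the largest change in each direction. *Rpl17*, *Rps27a*, the parents of paralogs, pseudogenes, and further genes were chosen with their values in view.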

Additional observations from a re-analysis of the deposited data

How the results depend on the processing

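The count of members called higher, 1 as reported, was 8 with no filter on low counts, where 1832 of 28512 genes were called higher and 1900 lower, 0 at an adjusted p under 0.01, and from 0 to 11 with each library left out. The count called lower, 2 as reported, was 1 with pseudogenes of the same name summed, 0 with genes sharing stretches summed, 0 at an adjusted p under 0.01, and from 0 to 2 with each library left out. Over all genes 2565 calls became 453 at an adjusted p under 0.01 and from 391 to 3484 with each library left out. With replicate number as a block, which assumes a pairing that the labels do not state, 1 member was called lower, *Rpl30* having an adjusted p of 0.0698, and 1235 genes were called in all. In that fit 480 of 14936 tested genes were called higher. Nucleolar assembly factors then had 11 of 61 higher and 0 lower, with a median of 0.40. Mitochondrial ribosomal protein genes had 2 of 77 higher and 0 lower, with a median of 0.26. The member median of 0.058 ran from 0.009 to 0.102 with libraries left out and kept its sign in every alternative. *Pgam2* had an edgeR log2 fold change of -0.83 (adjusted p = 0.0292) with no filter and of -1.11 to -0.56 with libraries left out. The summed share became 7.13%, 6.97% and 7.69% of protein-coding counts in the scrambled libraries and 7.32%, 7.26% and 7.13% in the Pgam ASO libraries, and with genes sharing stretches it was 7.46%, 7.27% and 8.03% under scrambled ASO and 7.60%, 7.58% and 7.45% under Pgam ASO, by construction higher. Apart from these constructions, the cause was not tested.

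Over 50 named genes and 16 settings, 727 values kept their side of the threshold, 16 of them uncalled values that changed sign, 59 lost a call and 14 gained one, and 0 called values reversed. Depth was high for most members and low for *Rpl24*, *Rpl36al*, *Rpl39l*, *Rpl3l* and *Rpl10l*, which had at most 63 counts in any library. The part of read division in the counts was not tested. Whether equal replicate numbers share an animal is not stated.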
